A study of Mus musculus with 24 samples.

Results

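The retinas of PWK/PhJ mice were compared with those of C57BL/6J mice, a pair of inbred strains that differ in refraction (PWK/PhJ is hyperopic and C57BL/6J is not) while their contrast sensitivity is nearly equal. Libraries were chosen by the strain in their label, which gave 6 of the 24 libraries of the series, 3 per strain. All mice were wild type and 28 postnatal days old, and total RNA of the retina was sequenced after removal of ribosomal RNA. C57BL/6J is a classical laboratory strain and the source of the reference genome to which the reads of both strains were aligned, whereas PWK/PhJ is derived from wild mice. The question was which retinal transcripts differ between a hyperopic and a non-hyperopic strain when contrast sensitivity is not the difference. Refraction and contrast sensitivity were measured at a later age than that of the libraries, hence in other mice, and a single pair of strains differs at very many loci, so strain and refraction cannot be told apart.

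Refraction is the match between the optical power of the eye and its length. The retina senses image blur and sends signals through the pigment epithelium and choroid that adjust growth of the eye wall, and an eye that stays too short for its optics is hyperopic. Rods and cones turn light into a fall in glutamate release, bipolar cells read that release through separate ON and OFF channels, amacrine cells (among them the dopaminergic ones) shape the signal, and Müller glia hold potassium and transmitter levels steady.

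Values are given in cpm, the reads of a gene divided by the total reads of its library and scaled to a common total. The genes with values summed to 345285 to 365061 cpm in the 6 libraries, so much of that total lay outside them. From the cpm that 1 read is worth, the total was about 62600000, 78200000 and 59400000 reads in replicates 1, 2 and 3 of C57BL/6J and 65400000, 58600000 and 70500000 reads in those of PWK/PhJ. A value of 3 reads, taken as the floor, was 0.0384 to 0.0512 cpm and covers counting error only. Correlation of log2(cpm + 1) across genes, which are not independent replicates, was 0.992 to 0.997 within a strain and 0.953 to 0.959 between the strains. Xist was 0.272, 0.499 and 906 cpm in C57BL/6J and 0.214, 1081 and 0.341 cpm in PWK/PhJ, and the summed Y-linked genes were high in the other 2 libraries of each strain. Each strain was therefore represented by 2 libraries with Y-linked RNA and 1 with Xist, although the labels give no sex. Nnt, in which C57BL/6J is known to carry a deletion, was 4.81, 4.72 and 4.93 cpm in C57BL/6J and 5.70, 6.40 and 5.49 cpm in PWK/PhJ. The groups did not overlap for Nnt, but the difference was not called (limma, q = 0.0109, with a gene called at a q-value under 0.01), and the whole-gene value does not show which exons were read.

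Markers of the labelled tissue were present in each library, among them Sag of photoreceptors (862 cpm or more), Trpm1 of ON bipolar cells (126 cpm or more) and Prkca of rod bipolar cells. RNA of other eye tissues was present too, and it differed between libraries. The 23 lens genes summed to 8.30, 278 and 15.1 cpm in C57BL/6J and to 97.5, 62.4 and 114 cpm in PWK/PhJ, with Cryaa holding the most reads and Dnase2b at or under the floor in all 6 libraries. Replicate 2 of C57BL/6J was thus the highest of the 6 libraries, and each PWK/PhJ library was above the other C57BL/6J libraries. Of 18 lens genes tested with all libraries, 2 were called. Once replicate 2 of C57BL/6J was left out, 16 were tested and all 16 were called, each higher in PWK/PhJ. The count called was 3 without replicate 2 of PWK/PhJ and 0 without replicate 1 or 3 of C57BL/6J or replicate 1 or 3 of PWK/PhJ (median of the 18 with all libraries 0.62). The 13 pigment epithelium genes summed to 50.9, 26.7 and 49.4 cpm in C57BL/6J and to 20.98, 29.8 and 16.1 cpm in PWK/PhJ, with Rgr holding the most reads. Replicate 2 of C57BL/6J was the low library there, within the range of PWK/PhJ.

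**Figure D1:**
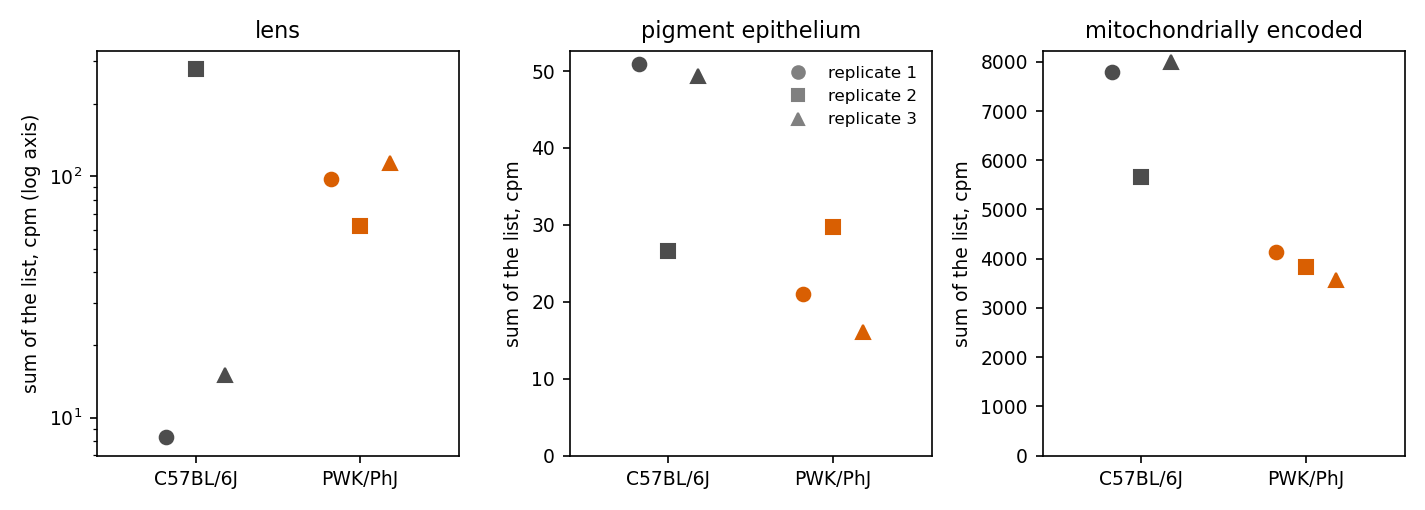
Summed cpm of the lens genes (left, log axis), the pigment epithelium genes (middle) and the 13 mitochondrially encoded genes (right) in each of the 6 libraries, one symbol per replicate. Replicate 2 of C57BL/6J stands apart from the other C57BL/6J libraries in all 3 panels, at 278 cpm for the lens, 26.7 cpm for the pigment epithelium and 5650 cpm for the mitochondrial genes.

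Of 15865 autosomal and mitochondrial genes whose values averaged 0.5 cpm or more over the 6 libraries, 5828 (36.7%) differed between the strains at a q-value under 0.01 in limma. Of these, 2981 (18.8% of those tested) were higher in PWK/PhJ and 2847 (17.9%) were lower. A difference of at least 1 on the log2(cpm + 1) scale, a scale that understates the change of genes with low values, was found for 283 higher genes (1.78%) and 376 lower genes (2.37%). Without replicate 2 of C57BL/6J, 3639 genes (23% of 15839) were higher and 2822 (17.8%) lower. Without any other single library fewer genes were called, 28.1% to 32.4% of those tested, with 2137 to 2480 higher and 2180 to 2654 lower. Counts within a gene list are read against these shares, and the median log2 difference of a list against that of all genes tested, 0.02.

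Some genes of the cones and of the shut-off of the light response were higher in PWK/PhJ, while other cone genes had lower values. Sag, the arrestin of photoreceptors, was 862, 1010 and 879 cpm in C57BL/6J and 1791, 1789 and 1730 cpm in PWK/PhJ. The PWK/PhJ libraries were all higher, and the log2 difference was 0.95 (SE 0.07, q = 1.55e-07). Cngb3, a subunit of the cone cyclic-nucleotide-gated channel, was 12.9, 12.7 and 12.3 cpm in C57BL/6J and 27.5, 26.8 and 26.5 cpm in PWK/PhJ. These groups lay far apart, with a log2 difference of 1.03 (SE 0.06, q = 1.69e-08). Gnb3, the cone transducin β subunit, had a mean of 61.4 ± 8.17 cpm (SD, n = 3) in C57BL/6J and 85.3 ± 1.93 cpm in PWK/PhJ, and Guca1a, an activator of guanylate cyclase in recovery, 91.1 ± 2.74 and 131 ± 8.56 cpm. Of 9 cone genes tested, 4 were higher and none lower (median difference 0.07), but 2 were higher and none lower without replicate 2 of PWK/PhJ, and 2 higher and 1 lower without its replicate 1. Gnat2 and Cnga3 of that list had lower values in each PWK/PhJ library but were not called (limma, q = 0.0138 and 0.0149). Opn1mw, a cone opsin on X and so not tested, was 27.7, 28.5 and 26.3 cpm in C57BL/6J and 18.7, 17.96 and 16.5 cpm in PWK/PhJ, without overlap. Arr3, the cone arrestin and the other untested gene of that list on X, had the opposite order without overlap, at 47.1, 51.3 and 47.3 cpm in C57BL/6J and 65.1, 61.7 and 60.6 cpm in PWK/PhJ. Of 9 recovery genes, 3 were higher and none lower (median 0.02), with 1 lower without replicate 1 of PWK/PhJ. Of 10 rod cascade genes, 1 (Pde6a) was lower, but the count was 0 without replicate 3 of C57BL/6J or replicate 2 of PWK/PhJ, 2 without replicate 1 of either strain and 3 without replicate 2 of C57BL/6J (median -0.11). Without replicate 3 of PWK/PhJ none was lower and 1 was higher. Fewer cells of a type and less RNA per cell cannot be told apart in these bulk samples.

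Impg1 and Impg2, genes of the interphotoreceptor matrix, were higher as well. Impg2, a proteoglycan of the matrix around the outer segments, was 182, 179 and 185 cpm in C57BL/6J and 312, 315 and 303 cpm in PWK/PhJ. No library of one strain came near the other strain, and the log2 difference was 0.76 (SE 0.05, q = 5.42e-08). Impg2 means were 273 to 316 cpm in 129S1/Svlmj, WSB/EiJ and CAST/EiJ and 167 to 181 cpm in NZO/HlLtJ, NOD/ShiLtJ and A/J. Impg1, its companion, rose from 60.5 ± 2.86 to 78.8 ± 2.31 cpm (SD, n = 3). C57BL/6J was the lowest strain for Impg1, and the other 6 strains had means of 67.4 to 79.1 cpm. The outer segment membrane genes Prom1 and Rom1 fell, with log2 differences of -0.32 and -0.27. Of 14 disc and retinoid genes, 3 were higher and 3 lower (median -0.03). At the ribbon synapse, through which photoreceptors release glutamate, 6 of 15 genes were higher and 1 was lower (median 0.06), with 2 lower without replicate 1 or replicate 3 of C57BL/6J. Among them Pclo, a scaffold of the active zone, rose from 125 ± 9.74 to 188 ± 7.11 cpm, and Slc17a7, which loads vesicles with glutamate, from 225 ± 30.6 to 326 ± 35.1 cpm.

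Bipolar cell genes moved both ways. Cabp5, a calcium-binding protein of bipolar cells, was 25.4, 22.7 and 25.4 cpm in C57BL/6J and 69.8, 72.2 and 62.5 cpm in PWK/PhJ. Every PWK/PhJ library was higher, with a log2 difference of 1.44 (SE 0.07, q = 4.25e-09). Trpm1, the ON bipolar cation channel that opens when glutamate falls, was 176, 181 and 169 cpm in C57BL/6J and 136, 126 and 126 cpm in PWK/PhJ. All PWK/PhJ libraries were lower (log2 difference -0.43, SE 0.05, q = 1.64e-05). Lrit3, which helps to place Trpm1 at the synapse, went the other way, from 9.003 ± 0.619 to 13.7 ± 0.981 cpm (SD, n = 3), as did Prkca, from 132 ± 6.26 to 173 ± 6.38 cpm. Of 10 ON bipolar genes 5 were higher and 3 lower (median 0.16), with 2 lower without replicate 3 of C57BL/6J. The ON bipolar genes called higher were 2 without replicate 1 or 3 of C57BL/6J or replicate 1 or 3 of PWK/PhJ. They were 3 without replicate 2 of PWK/PhJ. Over all tested genes, 2137 to 2480 were higher in these fits, against 2981 with all libraries. Vsx1, a transcription factor of cone bipolar cells, fell from 8.97 ± 1.20 to 5.51 ± 0.0914 cpm. Of 9 bipolar identity genes 3 were higher and 1 lower (median 0.10).

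**Figure D2:**
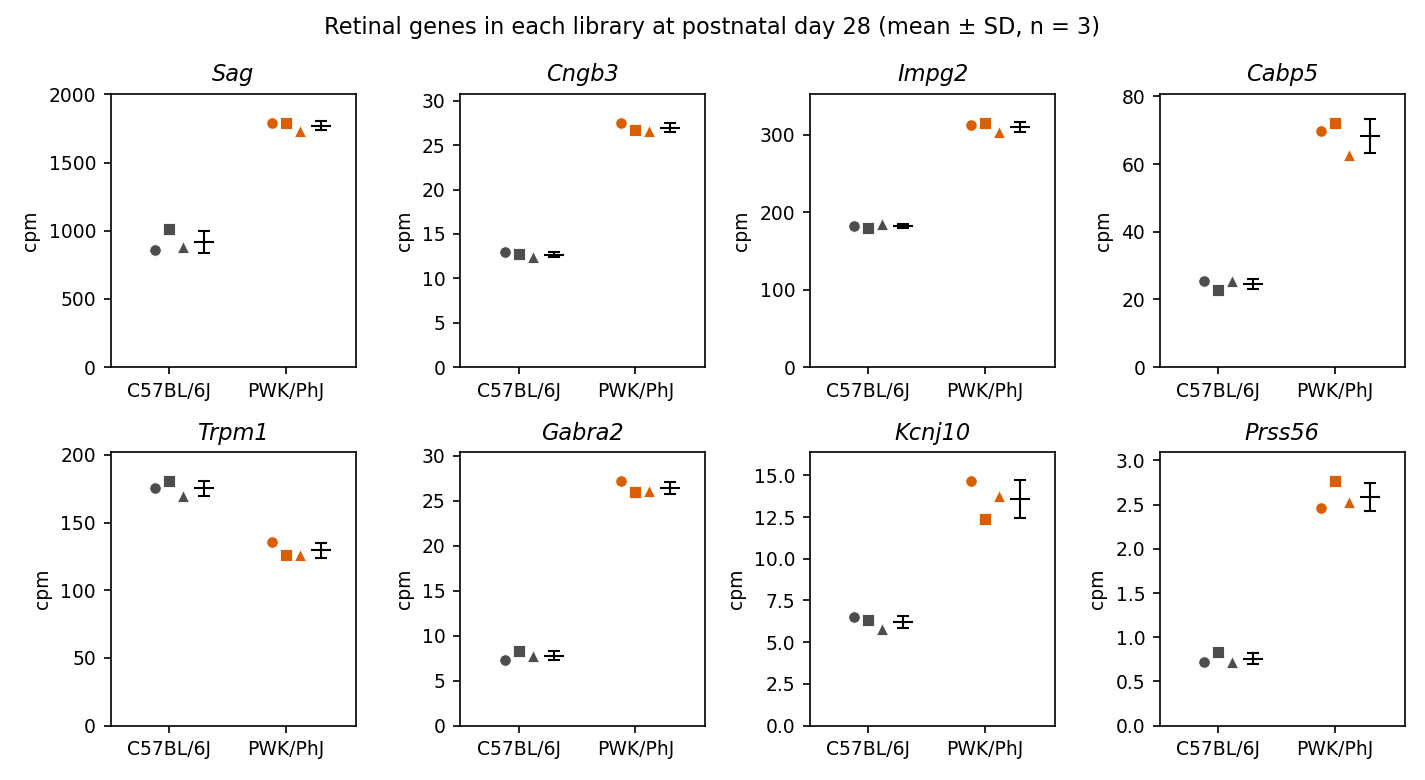
Values in cpm (vertical axes from 0) of 8 retinal genes in the 3 libraries of each strain, with the mean and SD beside the points. The strains do not overlap in any panel, with Trpm1 lower in PWK/PhJ and the other 7 genes higher.

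Receptor genes were called in both directions. Gabra2, the α2 subunit of the GABA-A receptor, was 7.30, 8.28 and 7.78 cpm in C57BL/6J and 27.2, 25.9 and 26.1 cpm in PWK/PhJ. The groups were separated by more than the spread within them (log2 difference 1.64, SE 0.07, q = 8.48e-10). In the other 6 strains the mean of Gabra2 was between 11.99 and 16.5 cpm, so that C57BL/6J was the lowest and PWK/PhJ the highest of the 8 strains. Glra3, a glycine receptor subunit, rose from 19.0 ± 1.26 to 27.9 ± 1.85 cpm (SD, n = 3), whereas Grm8, a metabotropic glutamate receptor, fell. Of 23 receptor genes 4 were higher and 7 lower (median -0.11). The 7 lower ones were 2 without replicate 3 of C57BL/6J and 3 without replicate 1 or replicate 2 of PWK/PhJ. They were 4 without replicate 3 of PWK/PhJ, and 3 were higher in each of these cases. Over all tested genes, 2180 to 2397 were lower and 2137 to 2403 higher in these fits, against 2847 and 2981 with all libraries.

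Amacrine and dopamine genes were called in both directions. Th, the rate-limiting enzyme of dopamine synthesis, was 0.543, 0.793 and 0.640 cpm in C57BL/6J and 1.25, 1.25 and 1.26 cpm in PWK/PhJ. The groups did not overlap (log2 difference 0.45, SE 0.08, q = 0.000211). Drd2, a dopamine receptor, was higher too, from 4.63 ± 0.0623 to 6.40 ± 0.709 cpm (SD, n = 3). C57BL/6J was the lowest of the 8 strains for Drd2, and PWK/PhJ lay within the means of the other 6 strains, 5.6 to 7.6 cpm. Of 8 dopamine genes 3 were higher and 1 lower (median 0.12). Of 16 amacrine genes 3 were higher, among them Sst and Slc18a3, and 1 was lower (median 0.03), and the share higher was that of all genes tested, 18.8%. Without replicate 2 of C57BL/6J 5 were higher, against 23% of all genes tested, and none was lower without any 1 of the 6 libraries. Of 12 ganglion cell genes 3 were lower, among them Thy1 and Nefl, and none higher (median 0.03), with 2 lower and 1 higher without replicate 3 of PWK/PhJ. Calb1 was the 1 of 5 horizontal cell genes called and was lower (median -0.12). Of 8 immediate early genes (median -0.02) 1 was higher with all libraries, and 1 was also lower without replicate 2 of C57BL/6J. The 1 was Jun, at 6.41, 8.05 and 8.31 cpm in C57BL/6J and 16.8, 12.3 and 16.3 cpm in PWK/PhJ, with no overlap.

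Among Müller glia genes Kcnj10, the potassium channel through which these cells clear potassium, was 6.52, 6.32 and 5.81 cpm in C57BL/6J and 14.6, 12.4 and 13.7 cpm in PWK/PhJ. The log2 difference was 1.01 (SE 0.08, q = 2.84e-07) with no overlap. C57BL/6J was the lowest of the 8 strains for Kcnj10, and the other 6 strains had means of 10.1 to 15.1 cpm, around that of PWK/PhJ (13.6 cpm). Sag had the same order at its low end, since C57BL/6J (917 cpm) was below the means of the other 7 strains and PWK/PhJ (1770 cpm) lay among them. Cngb3, in contrast, was 10.1 to 15.5 cpm in the other 6 strains, so there PWK/PhJ stood apart. Of 12 Müller glia genes 4 were higher and 2 lower (median 0.06).

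Among genes of small, hyperopic eyes the direction differed. Prss56, a serine protease whose loss makes small hyperopic eyes in mice and humans, was 0.719, 0.832 and 0.724 cpm in C57BL/6J and 2.46, 2.76 and 2.53 cpm in PWK/PhJ. Its groups did not overlap (log2 difference 1.03, SE 0.08, q = 1.84e-07). In the other hyperopic strains its mean was 5.08 cpm in WSB/EiJ, 3.03 cpm in CAST/EiJ and 0.586 cpm in NZO/HlLtJ. It was 0.891 cpm in 129S1/Svlmj, 1.47 cpm in A/J and 0.731 cpm in NOD/ShiLtJ, and the part of refraction in these values was not tested. Mfrp and Tmem98, genes of nanophthalmos expressed in the pigment epithelium, were lower in PWK/PhJ, and Mfrp was lowest in the C57BL/6J library with the lowest pigment epithelium sum, being 1.33 cpm in replicate 2 of C57BL/6J against 2.18 and 2.39 cpm in the others. The part of the pigment epithelium in that result was not tested. Of 4 genes of this list tested, 1 was higher and 2 lower (median -0.23). Of 21 genes linked to human myopia, 6 were higher and 5 lower (median -0.04), with Zfp644, Rasgrf1 and Lama2 among the lower ones and P3h2 and Tox among the higher ones.

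BMP and TGF-β signals are among those studied in eye growth. Of 26 genes of these pathways, 5 were higher and 8 lower (median -0.06), the latter 5 without replicate 2 of PWK/PhJ. The ligands Bmp3 and Bmp7 rose from 6.49 ± 0.265 to 10.2 ± 0.260 cpm and from 2.37 ± 0.171 to 4.15 ± 0.209 cpm (SD, n = 3), and the BMP antagonists Grem1 and Chrd were higher too. The receptors Bmpr1a and Tgfbr2 and the target Id3 were lower. Ltbp1, which stores TGF-β in the matrix, was 6.23, 4.56 and 5.84 cpm in C57BL/6J and 1.57, 1.96 and 1.76 cpm in PWK/PhJ. Of 13 retinoic acid genes (median -0.11), Cyp26a1, which degrades retinoic acid, was higher, and Crabp1 and Aldh1a1, a binding protein and a synthesis enzyme, were lower, although Aldh1a1 was not called when all 24 libraries were fitted together or without the filter on low values. Without replicate 2 of C57BL/6J 2 of the 13 were higher and 3 lower.

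Optc, which encodes opticin of the vitreous (chromosome 1, 133897199 to 133908000), was among the 10 largest decreases. It was 18.5, 8.34 and 14.6 cpm in C57BL/6J and 0.520, 0.614 and 0.270 cpm in PWK/PhJ. The strains did not overlap (log2 difference -3.28, SE 0.21, q = 5.00e-08). Vcan and Fbln1, which encode versican and fibulin and were named after their values were seen, and Fmod, a collagen-binding proteoglycan, were lower too, with Fbln1 at 6.63 ± 1.77 and 0.655 ± 0.118 cpm and Fmod at 2.83 ± 0.802 and 0.310 ± 0.0966 cpm (SD, n = 3). Replicate 2 of C57BL/6J was the lowest C57BL/6J library for Optc, Vcan, Fbln1, Fmod and Ltbp1, as it was for the pigment epithelium sum. Other strains did not all have this order. In A/J the pigment epithelium sum was 43.8, 76.9 and 93.9 cpm in replicates 1, 2 and 3, and Optc was lowest in replicate 1. In NOD/ShiLtJ that sum was 66.95, 36.1 and 33.1 cpm, whereas Optc was 2.05, 13.5 and 8.90 cpm. The 8 connective tissue markers overlapped between the strains in their sum, which was 26.8, 28.8 and 24.6 cpm in C57BL/6J and 28.3, 31.2 and 31.1 cpm in PWK/PhJ, with Fn1, which was higher in PWK/PhJ, holding the most reads. Without Fn1 the sum was 17.3, 14.9 and 16.2 cpm in C57BL/6J and 9.40, 11.9 and 10.3 cpm in PWK/PhJ, lower in each PWK/PhJ library as Optc, Fbln1 and Fmod (itself on that list) were, and the part of connective tissue RNA in their result was not tested. Libraries of 1 strain also differed widely. Optc was 0.764 cpm in replicate 1 of 129S1/Svlmj against 19.4 and 17.8 cpm in replicates 2 and 3, and 1.14 cpm in replicate 1 of A/J against 15.7 and 16.2 cpm. In the other hyperopic strains Optc was 0.417 to 0.688 cpm in NZO/HlLtJ, 0.877 to 1.75 cpm in CAST/EiJ and 0.903 to 5.42 cpm in WSB/EiJ, so that all 9 of these libraries were below each C57BL/6J library. Whether the lower values in PWK/PhJ come from the strain or from what differed between such libraries was not tested.

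**Figure D3:**
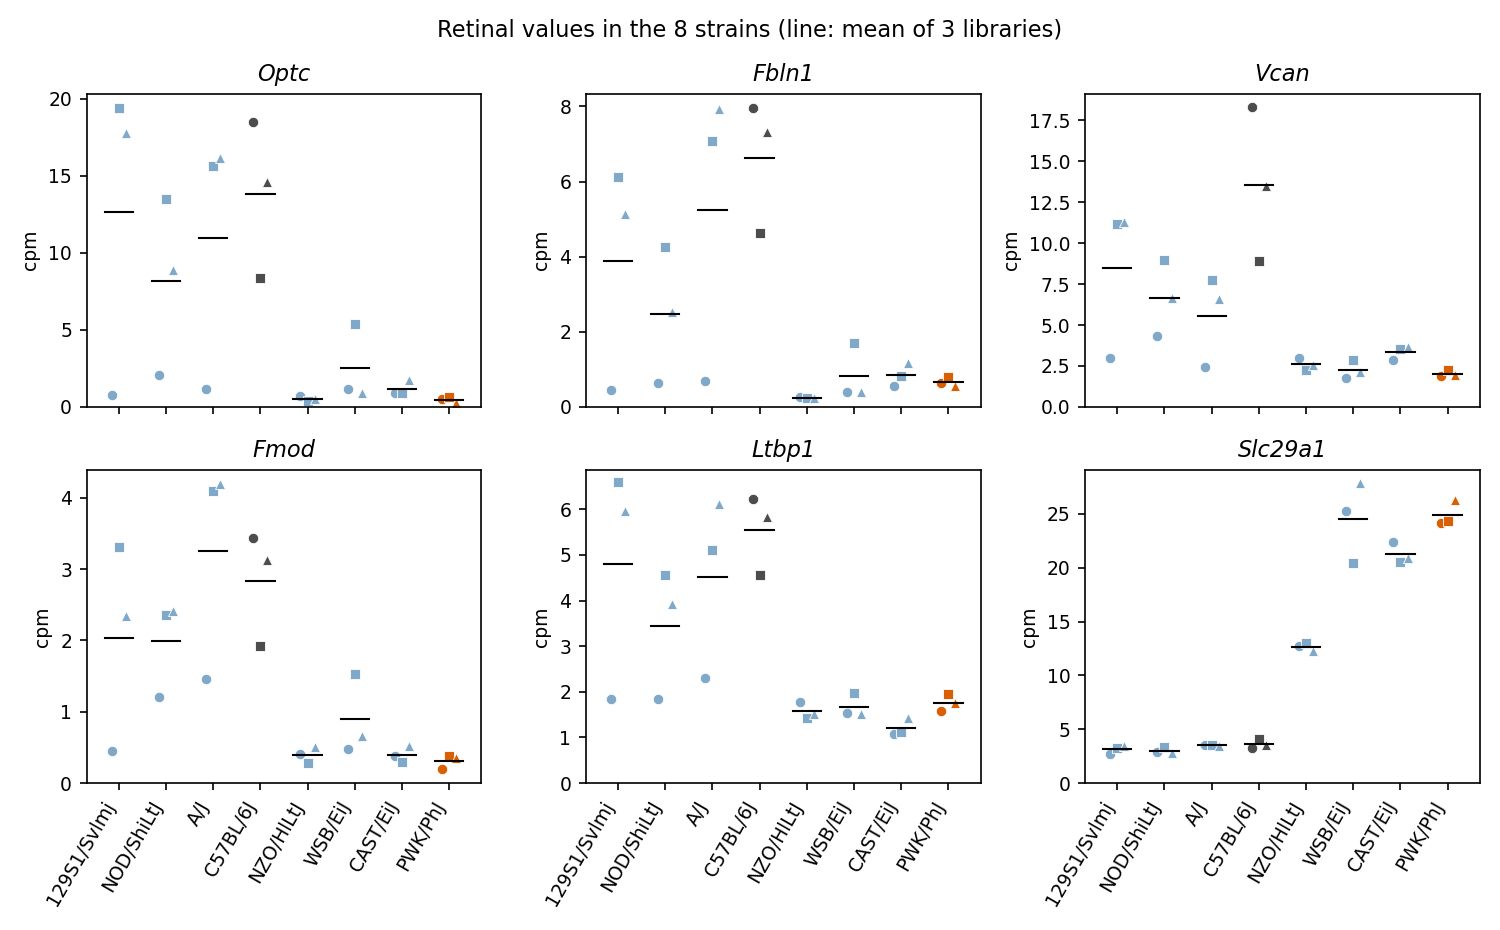
Values in cpm (vertical axes from 0) of 6 genes in all 24 libraries, by strain, with a line at the mean of 3 libraries. For the 5 matrix genes replicate 1 (circles) of 129S1/Svlmj, NOD/ShiLtJ and A/J lies below replicates 2 and 3 of the same strain, whereas Slc29a1 is 12.2 cpm or more in each library of PWK/PhJ, WSB/EiJ, CAST/EiJ and NZO/HlLtJ and at most 4.06 cpm in the others.

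Slc29a1, the equilibrative transporter that carries adenosine across membranes (chromosome 17, 45585200 to 45599607), did not vary in this way. It was 3.26, 4.06 and 3.55 cpm in C57BL/6J and 24.1, 24.3 and 26.3 cpm in PWK/PhJ. The groups were far apart (log2 difference 2.49, SE 0.08, q = 1.11e-10), and 6.86% of its exon bases overlap genes such as Gm17080 on the other strand. The means of the other hyperopic strains were 24.5 cpm in WSB/EiJ, 21.3 cpm in CAST/EiJ and 12.7 cpm in NZO/HlLtJ, against 3.02 to 3.51 cpm in 129S1/Svlmj, A/J and NOD/ShiLtJ.

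Over all tested genes, the means of CAST/EiJ, WSB/EiJ and NZO/HlLtJ were all above those of 129S1/Svlmj, A/J and NOD/ShiLtJ for 485 (3.06%) and all below for 1243 (7.83%). Among the genes higher in PWK/PhJ 141 of 2981 (4.73%) had the 3 hyperopic strains above and nearly as many, 134 (4.50%), had them below. Among the lower genes 347 of 2847 (12.2%) had them below and 66 (2.32%) above. Because single libraries can set a strain mean, as for Optc, the count was repeated after the values were seen with each of 9 libraries set against each of the other 9. Over all tested genes 0.315% then lay above and 0.744% below. Of the higher genes 26 (0.872%) lay above and 17 (0.570%) below, and of the lower genes 56 (1.97%) lay below and 8 (0.281%) above. CAST/EiJ and WSB/EiJ are wild-derived like PWK/PhJ, whereas NZO/HlLtJ is not, so ancestry and refraction were confounded in part and were not tested apart.

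For some of the named genes PWK/PhJ was apart from the other 7 strains. Hfm1, a helicase of meiotic recombination (chromosome 5, 106840192 to 106926322), was 2.13, 1.86 and 2.39 cpm in C57BL/6J and 35.8, 38.2 and 34.7 cpm in PWK/PhJ. PWK/PhJ was 17.1 times C57BL/6J, and the other 6 strains had means of 1.65 to 2.61 cpm. S100b, a calcium-binding protein of glia, was 2.21, 2.06 and 2.39 cpm in C57BL/6J and 19.2, 18.9 and 17.2 cpm in PWK/PhJ, with means of 1.85 to 3.46 cpm in the other 6 strains. Tent5c, a poly(A) polymerase, rose from 1.28 ± 0.337 to 16.3 ± 0.779 cpm (SD, n = 3). In the opposite direction Vopp1 (chromosome 6, 57727807 to 57825160), named after its values were seen, fell from 138 ± 6.58 to 29.6 ± 0.538 cpm, while the other 6 strains had means of 109 to 167 cpm.

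For other named genes PWK/PhJ was close to CAST/EiJ, which is also wild-derived. Plekhg1, a guanine nucleotide exchange factor, was 5.42, 5.30 and 5.67 cpm in C57BL/6J and 57.1, 52.3 and 53.3 cpm in PWK/PhJ, and had a mean of 48.3 cpm in CAST/EiJ. Cd207, which encodes langerin, was 0.144, 0.103 and 0.118 cpm in C57BL/6J and 5.00, 5.22 and 5.69 cpm in PWK/PhJ, with 5.71 cpm in CAST/EiJ. Dnah9, an axonemal dynein heavy chain, fell from 29.1 ± 3.10 to 0.462 ± 0.0729 cpm (SD, n = 3) and was 0.453 cpm in CAST/EiJ, against 19.1 to 28.2 cpm in the other 5 strains. Sequence differences of these strains from the reference, to which all reads were aligned, were not measured, and their part in the values was not tested. Dnah8 and Otor were also among the 10 largest increases, and Igfn1, Ahrr, Stag3, Plekhg3 and Fxyd6 (lower) and Iqgap1 and Bst1 (higher) followed once genes with shared sequence were set aside, a step chosen after the values were seen.

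Reads of near-identical copies can be assigned to either, so the 31-base words that a gene shares with other genes were counted. Over 5% of the words were shared in 54.8% of called genes lower by at least 1 on the log2(cpm + 1) scale. Among those higher by as much it was 60.5%, against 36.2% of all tested. The single values of genes with such sharing are uncertain. Among genes described above, the share was 47.2% for Pcp2 of the ON bipolar list, 35.2% for Mfrp, 32.2% for Nefl, 28.9% for P3h2, 7.48% for Prom1, 6.39% for Jun, 5.77% for Sag and 5.70% for Aldh1a1. Gapdh, the glycolytic enzyme, was 99.8, 85.4 and 101 cpm in C57BL/6J and 13.2, 13.9 and 15.1 cpm in PWK/PhJ. Of its 31-base words 28.1% are found in other genes. Its processed pseudogene Gm7336 was 97.6 ± 9.06 cpm in C57BL/6J and at or near the floor in PWK/PhJ, and another, Gm3272, was 0.0860 ± 0.0241 and 123 ± 2.33 cpm (SD, n = 3). Summed over 53 genes that share these words, the values were 193, 197 and 199 cpm in C57BL/6J and 141, 139 and 139 cpm in PWK/PhJ, a ratio of 0.713 where Gapdh alone gave a log2 difference of -2.68. Eno1 was 146, 157 and 139 cpm against 12.9, 13.5 and 15.3 cpm, yet its family summed to 474 ± 16.9 and 433 ± 39.4 cpm, and these sums overlapped. Ftl1, Rps3a1 and Rpl14 had log2 differences of -4.55, -3.27 and -2.80, while the ratios of their family sums were 0.790, 0.781 and 0.772, and 34.6% of the exon bases of Ftl1 overlap Gm10252 on the other strand. Zfp982 was lower while Zfp990, which shares its words, was higher in PWK/PhJ, and the sums of their 9 genes overlapped (ratio 0.882). Zfp971 lies among 43 genes with shared words whose sum in PWK/PhJ was 1.32 times that in C57BL/6J. For Srp54c, Catspere1 and Sfi1 the sums kept the direction, at 0.184, 8.49 and 4.78 times C57BL/6J. Zfp605 was 13.2, 12.8 and 13.0 cpm in C57BL/6J and under 3 reads in each PWK/PhJ library, so no ratio is given.

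**Figure D4:**
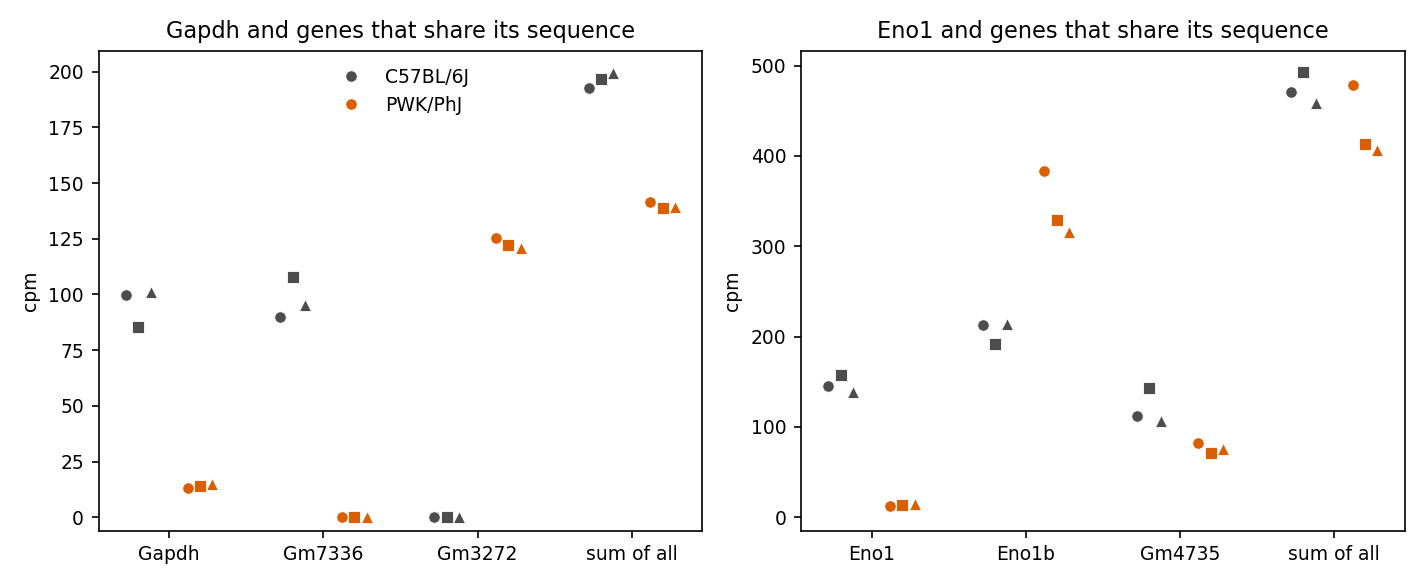
Values in cpm of Gapdh (left) and Eno1 (right), of their main copies and of the sum over all genes with shared 31-base words, in the 3 libraries of each strain. The genes differ widely between the strains, while the sums lie at 193 to 199 against 139 to 141 cpm for Gapdh and overlap for Eno1.

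Energy metabolism has to be read with the same limit. Hk2, the hexokinase of photoreceptors, was 114, 120 and 125 cpm in C57BL/6J and 184, 178 and 182 cpm in PWK/PhJ, and shares almost no words with other genes. The groups did not overlap (log2 difference 0.60, SE 0.05, q = 7.98e-07), and Eno2 was higher as well. The transporters Slc16a7 and Slc2a1, for lactate and glucose, were lower. Of 21 glycolysis genes 2 were higher and 10 lower (median -0.06), but 4 were higher and 9 lower without replicate 2 of C57BL/6J (median -0.01), and 11 of the 21 had over 5% shared words. The 13 mitochondrially encoded genes summed to 7800, 5650 and 8002 cpm in C57BL/6J and 4140, 3825 and 3560 cpm in PWK/PhJ, with mt-Co1 holding the most reads. Without mt-Co1 the sums were 4152, 2822 and 4224 cpm and 2968, 2643 and 2490 cpm, and overlapped through replicate 2 of C57BL/6J. Nuclear copies differed in both directions. Gm13340 was under 1 cpm in each C57BL/6J library and 1345, 1270 and 1094 cpm in PWK/PhJ, whereas Gm10925 had means of 398 ± 95.5 and 239 ± 15.8 cpm and Gm28661 of 656 ± 141 and 442 ± 41.6 cpm (SD, n = 3). Over the 25 genes of the family, which include the 13 mitochondrial ones, the sums were 9971, 7360 and 10240 cpm and 7687, 7193 and 6525 cpm, and the strains overlapped through replicate 2 of C57BL/6J. Of the 13 genes 6 were lower with all libraries (median -0.36) and 10 without that replicate (median -0.68).

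Clock and chromatin genes were the remaining retinal lists. Per3, a clock repressor, was 49.8, 51.2 and 47.8 cpm in C57BL/6J and 73.8, 70.0 and 72.2 cpm in PWK/PhJ. The groups did not overlap (log2 difference 0.53, SE 0.05, q = 2.64e-06), and the time of day of collection was not given in the sources used here. Of 25 clock genes 6 were higher and 1, Rorb, lower (median 0.10), with 2 lower without replicate 1 of C57BL/6J. Kmt2a, a histone H3 methyltransferase, rose from 125 ± 18.6 to 199 ± 14.1 cpm (SD, n = 3) and Ezh2, of the Polycomb complex, fell from 13.0 ± 1.01 to 8.25 ± 0.597 cpm. Of 20 methylation genes 5 were higher and 1 lower (median 0.13).

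Immune and vascular genes that were called were mostly lower. Of 9 antigen-processing genes 5 were lower and none higher (median -0.30), among them B2m and Erap1 (11.0% shared words), and 3 were called without replicate 1 of PWK/PhJ. H2-D1 and H2-T23, the MHC genes called, share 26.9% and 25.8% of their words and are uncertain, and H2-T23 was not called without replicate 1 of C57BL/6J or replicate 1 or 3 of PWK/PhJ. Of 11 interferon genes 4 were lower and 1 higher (median -0.13). Oasl2 was 2.44, 2.48 and 2.46 cpm in C57BL/6J and 0.810, 0.836 and 0.781 cpm in PWK/PhJ, with no overlap. Of 8 microglia genes 4 were lower, with a median of -0.22 (C1qc from 1.01 ± 0.0739 to 0.236 ± 0.107 cpm), while Ctss, Csf1r and P2ry12 were among those not called. The 12 microglia markers summed to 17.4, 17.3 and 18.7 cpm in C57BL/6J and 17.0, 16.7 and 15.4 cpm in PWK/PhJ. Of 10 endothelial genes 4 were lower, with Pecam1 falling from 4.40 ± 0.295 to 2.005 ± 0.0958 cpm, and Kdr was higher (median -0.21). The 10 summed to 128.0, 137.0 and 134.2 cpm in C57BL/6J and 145.3, 146.0 and 142.9 cpm in PWK/PhJ, where Kdr held the most reads. Without Kdr the order turned, with 67.6, 76.9 and 76.2 cpm in C57BL/6J and 58.7, 64.5 and 63.4 cpm in PWK/PhJ. Of 9 pigment epithelium genes 6 were lower (median difference -0.71), and 2 were called without replicate 3 of C57BL/6J or replicate 3 of PWK/PhJ and 3 without replicate 1 of PWK/PhJ. Of 7 connective tissue genes 4 were lower and 1, Fn1, higher (median -0.42), with 2 lower without replicate 1 or 3 of either strain. Of 4 blood genes Hba-a2 and Hbb-bt were lower (median -0.40), 1 was lower without replicate 2 or 3 of PWK/PhJ, 1 of the 4 was higher without replicate 2 of C57BL/6J, and both share sequence with other globin genes (92.6% and 59.4% of their words). The 7 blood genes summed to 20.2, 25.4 and 7.47 cpm in C57BL/6J and 21.8, 7.46 and 14.8 cpm in PWK/PhJ, with Hbb-bs holding the most reads. The 1 muscle gene tested, Acta1, was higher (0.27), and it was called without replicate 2 of C57BL/6J but not without replicate 1 or 3 of C57BL/6J or any 1 replicate of PWK/PhJ. The 8 muscle genes summed to 1.34, 1.95 and 2.07 cpm in C57BL/6J and 1.68, 2.30 and 2.48 cpm in PWK/PhJ, with Acta1 holding the most reads.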

How the data were processed

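RNA was sequenced from total RNA of mouse retina after ribosomal RNA depletion with a stranded kit. Per the submitters' processing notes and the study's methods, STAR aligned the reads to GRCm38/mm10 and Partek counted them by its E/M model, which can split 1 read among several transcripts. Dividing by the total reads of the library, the authors obtained the cpm used here. The lowest value in each column was 0.0001, taken as an offset. The methods name RefSeq, while the identifiers are of Ensembl type, and whether counting used strand was not given in the sources used here. About 88.8% to 90.5% of the values under 0.3 cpm were whole reads within a tolerance of 0.05, so no count test was used. The study treats each library as a biological replicate, and the animals behind a library are not given in the labels, so p-values measure the spread between these libraries.

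Genes on X and Y were left out, as were those with a mean under 0.5 cpm. The log2 of the value plus 1 was fitted with limma (version 3.58.1, R 4.3.3; lmFit, eBayes with trend), two-sided, with Storey's q-value under 0.01. The test was checked on simulated data, where 184 of 200 genes shifted by 1 log2 unit among 15865 were recovered (92%) and 2 others were called, which does not describe smaller differences. Simulated noise was independent between genes, so calls due to differences of a whole library, such as its lens RNA, are not described either. Gene lists were counted, not tested. Named genes were the 10 largest increases and the 10 largest decreases among protein-coding genes called without each single library and under both other scalings, with at least 5 cpm in the higher strain, plus list members. Members and lists were chosen with earlier results of these data known. Words of 31 bases shared between genes came from GENCODE M21 transcripts (28007 of 28802 genes matched). Alternatives were another pseudocount (0.1), other filters, median-ratio and quantile scaling, all 24 libraries in the fit, X and Y included, the Benjamini-Hochberg adjustment, a q-value limit of 0.05, no trend and each library left out. Only genes with little shared sequence, sex as a covariate and the count over single libraries of the other strains were added after the data were seen.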

Additional observations from a re-analysis of the deposited data

How the results depend on the processing

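The 5828 genes called became 4450 to 6461 with single libraries left out, and stayed within 1.5 times under the other scalings and adjustments. With a mean of at least 5 cpm, 3079 of 8971 genes were called (1665 higher, 1414 lower), because fewer genes were tested. Of these, 125 higher and 131 lower genes differed by at least 1 on the log2(cpm + 1) scale. The order of the other strains was followed by 71 higher and 136 lower genes. With at most 5% shared words, an alternative chosen after seeing the data, 3502 of 9967 were called (1850 higher, 1652 lower). Of these, 107 higher and 165 lower genes differed by at least 1 on that scale, and 75 and 226 were in that order. A pseudocount of 0.1 gave 564 genes higher and 692 lower by at least 1 on the log2(cpm + 0.1) scale. A q-value limit of 0.05 gave 4539 higher genes. Gnat1, at -0.20, changed sign to 0.41 under quantile normalization, and the cause was not tested. Crygc, at -0.08 with all libraries, ranged from -0.47 to 0.60 with single libraries left out, the highest without replicate 2 of C57BL/6J, the library with the most lens RNA. For 405 genes under 18 alternatives there were 7053 values, a gene not being tested in the other 237 cases. Among these values the side of the threshold was unchanged 6554 times, a call was lost 312 times and gained 185 times, and 2 times, for Gnat1 and Crygc as given above, a gene not called with all libraries was called with the opposite sign. The median difference of all genes was 0.02 as deposited and 0.01 under either other scaling. At the limit of 0.5 cpm, 29.3 to 39.1 reads leave a counting error of 16.0% to 18.5%. No paired analysis was run, because the replicate numbers used here only follow the order of the libraries. The labels do not tie libraries of different strains to a shared litter, batch or day.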
